A study of Xenopus laevis with 9 samples.

Results

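The Dlx family is a set of homeodomain transcription factors, followed here in RNA-seq libraries of animal pole explants from the frog Xenopus laevis. The members were taken by name: a listed gene counted as a member if its symbol, without the final .L or .S, was one of the 6 names dlx1 to dlx6. This gave 10 of the 51061 listed genes, an L and an S copy of each of the 5 names dlx2, dlx3, dlx4, dlx5 and dlx6. No listed gene carried the plain name dlx1. Xenopus laevis is allotetraploid, and its L and S copies (homeologs) sit on 2 separate subgenomes inherited from different ancestors.

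The explants fell into 3 groups of 3 libraries, all with the genotype labelled wild type. St9 wild type was the untreated blastula animal pole at stage 9, the state the study calls blastula stem cells. St9 soxb1 morphant was the same tissue at stage 9 after injection of soxb1 morpholinos, antisense oligonucleotides that block translation of Sox2 and Sox3. St11.5 NPB was explants at stage 11.5, mid-gastrula, labelled neural plate border and injected with Wnt8a and Chordin mRNA. Each library came from a pool of explants. The morphants were compared with untreated explants, since no control morpholino group was among the samples, and the NPB explants differed from wild type in stage, injected mRNA and count table together.

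In vertebrate genomes the Dlx genes lie as neighbours in convergent pairs, Dlx1 with Dlx2, Dlx3 with Dlx4 and Dlx5 with Dlx6, and the members of a pair often share enhancers. In the frog gastrula, dlx3 and dlx5 mark the non-neural ectoderm and the rim of the neural plate and respond to BMP signalling. Later in development Dlx1, Dlx2, Dlx5 and Dlx6 act in forebrain interneurons, and Dlx genes pattern the branchial arches formed by neural crest. The study treats dlx genes as part of the neural plate border programme, and asks whether SoxB1 factors are needed for it. By quantitative PCR it reports lower dlx5 in border-induced explants depleted of Sox2 and Sox3, a later stage than the morphants here. It also reports Sox3 binding near dlx6 in blastula and border explants.

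The library totals lay between 25796466 and 48839143 counts, so that 3 counts, taken as the floor of detection, stood for 0.0614 to 0.116 CPM (the count scaled to the library total, without length correction). The tissue labels were checked with marker lists. The summed neural plate border markers (pax3, zic1, msx1, tfap2a, prdm1 and klf17) stood at 322 to 379 CPM in wild type, 112 to 153 CPM in morphants and 1624 to 2671 CPM in NPB explants. The summed mesoderm and endoderm markers stood at 141 to 252, 274 to 358 and 4.69 to 36.7 CPM in the same order of groups, and 5 to 6, 2 to 5 and 6 to 9 of their 20 gene copies were at or under the floor. The libraries came from whole explants, in which fewer cells of a type and less RNA per cell cannot be told apart.

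All dlx genes together held little of the blastula transcriptome and more of it in NPB explants. Their sum was 23.5, 21.1 and 22.4 CPM in the 3 wild-type libraries, 35.3, 45 and 36.5 CPM in the morphant libraries and 300, 69.4 and 87.7 CPM in the NPB libraries. The 3 groups did not overlap in this sum. NPB replicate 1 stood far above the other 2 NPB libraries, and it did so again for dlx3, dlx5 and dlx6.

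**Figure D1:**
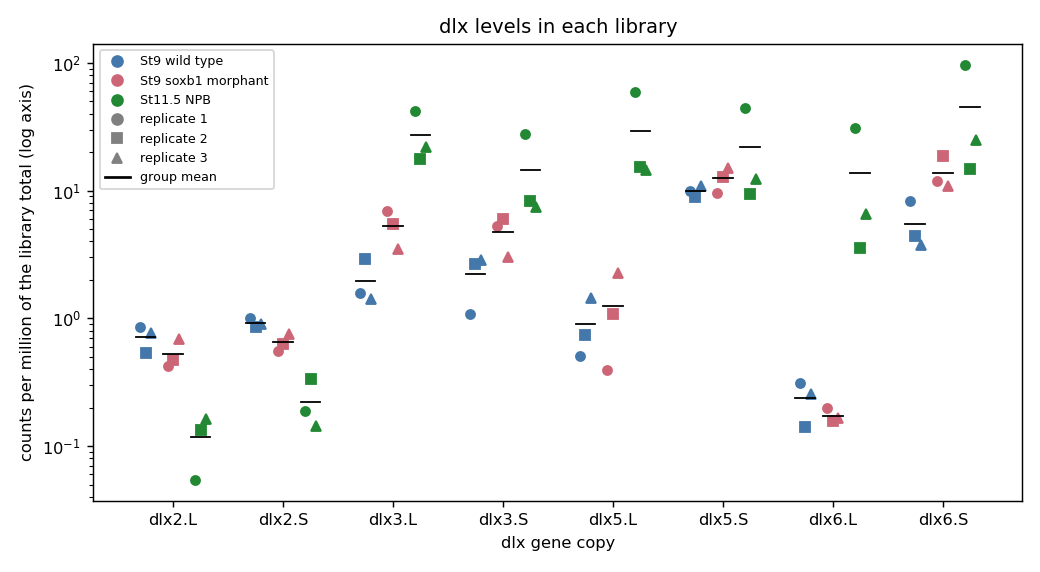
Level of each detected dlx gene copy, in CPM on a log axis, for the 3 wild-type (blue), 3 soxb1 morphant (red) and 3 NPB (green) libraries, with replicates 1, 2 and 3 as circles, squares and triangles and the group mean as a black line. The green points of dlx3, dlx5.L and dlx6 lie above the blue ones, those of dlx2 lie below them, and NPB replicate 1 is the highest point of dlx3, dlx5 and dlx6 in both copies.

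The blastula explants carried S copies of dlx5 and dlx6 above the rest of the family. In wild type, dlx5.S made up 44.3% ± 3.96 of all dlx counts and dlx6.S 24.3% ± 9.56 (SD, n = 3). In morphants the shares were 32.3% ± 7.83 for dlx5.S and 35% ± 5.65 for dlx6.S. These are shares of counts, which are not corrected for gene length, and so they rank the counts and not the transcripts.

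The first comparison asked what depletion of Sox2 and Sox3 did to the family in blastula stem cells. Of the 10 dlx genes, 7 held enough counts to be tested, while dlx4.L, dlx4.S and dlx6.L fell below the filter in both groups. With edgeR's quasi-likelihood test and Benjamini-Hochberg adjustment, 0 of the 7 passed an adjusted p of 0.05, and 0 of all 21659 genes tested passed (0%). An unadjusted p under 0.05 was reached by 3 of the 7, all higher in morphants (dlx3.L, dlx3.S and dlx6.S), against 5.72% of all genes in either direction and 2.57% higher. DESeq2, which kept dlx6.L as well, passed 1 of 8, dlx6.S, against 1.77% of all genes. The wild-type and morphant libraries of one replicate number deviated together from their group means, and fits without a block count this as spread. A count of 0 there does not show that no gene differed. With the replicate number as a block edgeR passed 2 of the 7, dlx3.L and dlx6.S, both higher in morphants, against 12.5% of all genes (5.75% higher). DESeq2 with the block passed 3 of 8, these genes and dlx3.S, against 8.07% of all genes. The median log2 fold change over the 7 was 0.46 without the block and 0.40 with it, beside 0.00 and 0.01 over all genes tested.

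dlx3, whose product acts in frog epidermis and at the border of the neural plate, had more counts in morphants in both copies. dlx3.L (gene7347) had 41, 82 and 44 counts in wild type, which were 1.59, 2.91 and 1.41 CPM, and 209, 173 and 107 counts in morphants, which were 6.86, 5.46 and 3.52 CPM. Every morphant library lay above every wild-type library. The log2 fold change of dlx3.L was 1.43 (SE 0.42, edgeR adjusted p 0.458) without the block and 1.42 (SE 0.22, adjusted p 0.000748) with it. A log2 fold change of 1.42 is a 2.67-fold rise. Within the same-number pairs the log2 difference was 2.07, 0.87 and 1.29, and the blocked call of dlx3.L held with any pair left out (adjusted p 0.00175 to 0.00499).

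dlx3.S (gene45289) had 28, 75 and 90 counts in wild type and 162, 189 and 92 in morphants. In CPM these were 1.09, 2.66 and 2.88 against 5.32, 5.97 and 3.02. The groups did not overlap, but by a narrow margin: the lowest morphant library, replicate 3, stood just over its own wild-type partner. The pair differences were 2.23, 1.12 and 0.07 on the log2 scale. The log2 fold change of 1.1 (SE 0.39) did not pass with the block (edgeR adjusted p 0.15), and with a pair left out it was 0.62 (adjusted p 0.202) without replicate 1, 1.06 (adjusted p 0.373) without replicate 2 and 1.61 (adjusted p 0.000527) without replicate 3.

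dlx6, the neighbour of dlx5, is a border gene in the frog and an interneuron and jaw gene in later vertebrate development. dlx6.S (gene14580) had 213, 125 and 118 counts in wild type, 8.26, 4.44 and 3.77 CPM, and 363, 586 and 333 in morphants, 11.9, 18.5 and 10.9 CPM. Again no morphant library fell into the wild-type range. The pair differences of dlx6.S were 0.54, 2.02 and 1.52 on the log2 scale, smallest for replicate 1, whose wild-type library was the highest of its group. The log2 fold change of dlx6.S was 1.32 (SE 0.37, edgeR adjusted p 0.419) without the block, 1.35 (SE 0.30, adjusted p 0.0485) with it, and 1.31 in DESeq2 (adjusted p 0.0435). The blocked call was lost without the replicate 2 pair (adjusted p 0.0502) and without the replicate 3 pair (0.268). Without the replicate 1 pair it held, at 1.80 (edgeR adjusted p 8.36e-09).

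The L copy of the same gene stayed near the floor. dlx6.L (gene5616) had 8, 4 and 8 counts in wild type and 6, 5 and 5 in morphants, and could not be tested with the main filter. In DESeq2, which kept it, the log2 fold change of dlx6.L was -0.45 (SE 0.98, adjusted p 0.999999).

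dlx5, a marker of non-neural ectoderm and border, did not pass in either copy. dlx5.S (gene17537) had 256, 249 and 342 counts in wild type and 293, 403 and 458 in morphants, 9.92, 8.84 and 10.9 CPM against 9.62, 12.7 and 15.1 CPM. The groups overlapped, with morphant replicate 1 inside the wild-type range. The log2 fold change of dlx5.S was 0.33 (SE 0.23, edgeR adjusted p 0.99998) and with the block 0.32 (SE 0.13, adjusted p 0.131). dlx5.L (gene13855) had 13, 21 and 45 counts in wild type and 12, 34 and 69 in morphants. Replicate 1 was the lowest and replicate 3 the highest library in both groups, and the groups overlapped. Its log2 fold change was 0.46 (SE 0.71, edgeR adjusted p 0.99998) without the block and 0.40 (SE 0.31, adjusted p 0.479) with it. Without morphant replicate 3 the unblocked value was -0.31.

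dlx2, which in later embryos acts in forebrain neurons and in cranial neural crest, had fewer counts per library in morphants in both copies on average. dlx2.L (gene12091) had 22, 15 and 24 counts in wild type and 13, 15 and 21 in morphants. dlx2.S (gene815) had 26, 24 and 28 against 17, 20 and 23. The dlx2.S groups did not overlap and those of dlx2.L did, and all 3 pairs were lower in morphants for both copies. Neither passed: the log2 fold change was -0.44 (SE 0.44) for dlx2.L and -0.50 (SE 0.38) for dlx2.S, each with an edgeR adjusted p of 0.99998. With the block the values were -0.43 (SE 0.37, adjusted p 0.537) for dlx2.L and -0.50 (SE 0.33, adjusted p 0.393) for dlx2.S. Over the tested members, groups without overlap were found for 3 higher and 1 lower, against 10.2% of all genes, and all 3 pairs agreed in direction for 3 higher and 2 lower, against 45.2% of all genes.

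dlx4, a placental and epithelial gene in mammals, was at or under the floor everywhere. dlx4.L (gene10071) had 0, 0 and 1 counts in each of the 3 groups, and dlx4.S (gene34414) had 0 counts in all 9 libraries, which allows up to 0.0614 to 0.116 CPM depending on the library. Its partner dlx3, close to it in the genome, was detected in every library.

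**Figure D2:**
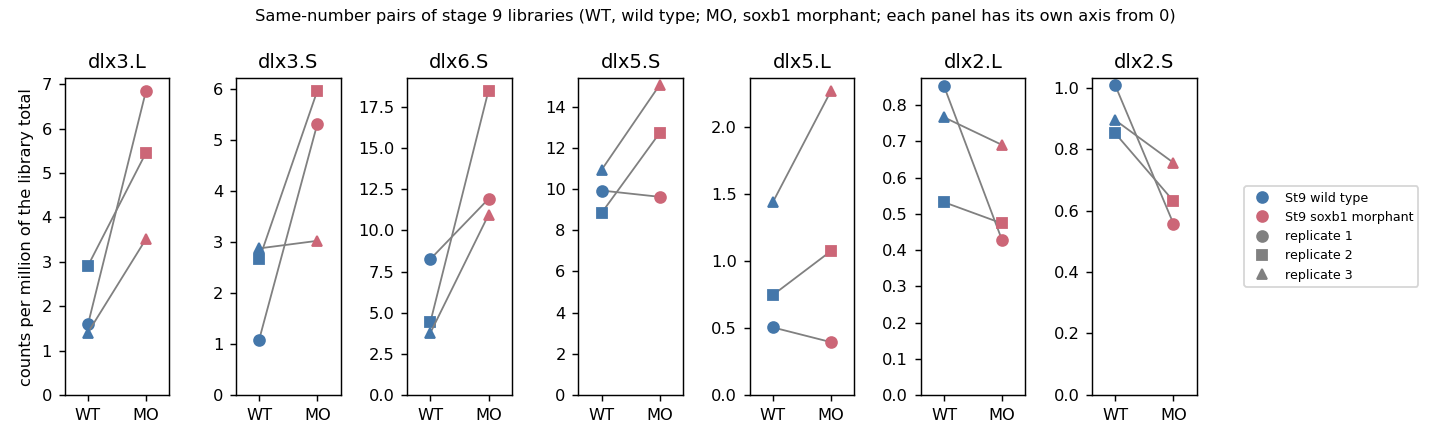
CPM for the 7 dlx gene copies tested at stage 9, with lines joining the wild-type (WT, blue) and soxb1 morphant (MO, red) libraries of the same replicate number and a separate axis from 0 in each panel. All 3 lines rise for dlx3.L, dlx3.S and dlx6.S and fall for dlx2.L and dlx2.S, and the replicate 1 line goes the other way from the remaining lines for dlx5.S and dlx5.L.

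Summing the L and S counts of a gene gave 4 testable genes. The log2 fold change was 1.27 for dlx3 (edgeR adjusted p 0.463) and 1.27 for dlx6 (adjusted p 0.452), and 0 of 4 passed, against 0.0363% of all summed genes. With the block, dlx3 passed at 1.24 (SE 0.29, adjusted p 0.0479), against 12.6% of all summed genes.

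Genes that act with Dlx in the ectoderm were counted by list. Without the block 0 genes of any list passed, as for all genes. With the block, 2 of 21 tested non-neural ectoderm factors (tfap2, gata2/3, msx, foxi, tp63, grhl and ventx genes) were higher in morphants and 6 lower, with a median log2 fold change of -0.46, against 5.75% higher and 6.71% lower of all genes tested. The largest of these were ventx1.2.S (-2.41, SE 0.18, edgeR adjusted p 3.23e-07) and ventx1.2.L (-2.41, SE 0.54, adjusted p 0.0329), homeobox repressors downstream of BMP. Of the BMP ligands 0 of 8 were higher and 3 lower, led by admp.S (-4.27, SE 0.19, adjusted p 2.95e-09), an organizer BMP. Of the BMP receptors 1 of 11 was higher and 3 lower, of the Smad transducers 1 of 11 higher and 0 lower, and of the BMP feedback and target genes 2 of 19 higher and 5 lower. The mesoderm and endoderm markers, whose sum was larger in morphants, had 9 of 12 higher and 2 lower with the block. The epidermis markers (krt12.4, trim29, tp63 and itln1, as krt5.7 was not among the listed genes) had 2 of 5 higher and 0 lower, trim29.L (1.80, SE 0.18, adjusted p 6.3e-06) and trim29.S (0.72, SE 0.22, adjusted p 0.042). Their sum was 10.9, 15.3 and 26.3 CPM in wild type and 17.8, 21 and 38.9 CPM in morphants, larger in morphants in each same-number pair, with 1 to 2 of the 8 gene copies at or under the floor in each library. The neural markers (olig2, otx2, ncam1, sox1 and neurog2) had 0 of 5 higher and 2 lower. The neural plate border markers had 0 of 9 higher and 5 lower with the block, with a median log2 fold change of -1.65. The largest were prdm1.S (-6.03, SE 0.20, edgeR adjusted p 9.93e-09) and prdm1.L (-4.46, SE 0.20, adjusted p 1.25e-08). The part of any of these cells in the dlx values was not tested.

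The second comparison set NPB explants against wild type, and it shares the wild-type libraries with the first. Here 8 of the 10 dlx genes were tested and 7 passed, 6 higher in NPB (both copies of dlx3, dlx5 and dlx6) and 1 lower (dlx2.L), against 53.7% of all 21981 genes tested (26.9% higher and 26.7% lower). The TMM-scaled groups did not overlap for 8 of 8, against 64% of all genes. The median log2 fold change over the 8 was 3.64, beside -0.04 over all genes. dlx6.L passed the filter only through the NPB libraries and dlx2.L and dlx2.S only through the wild-type libraries, so a difference in these was built in. The other 5 tested members had 10 or more counts in every library of both groups, and all 5 were higher and past the threshold. In a fit limited to the 17977 genes with that many counts in every library, these 5 were again higher and passed. Of all genes in that fit 56.1% passed (27.4% higher). Scaled by the library totals alone, the median of all genes moved to -0.72 and the dlx calls became 5 higher and 2 lower, with dlx5.S lost and dlx2.S gained, against 60.8% of all genes. Stage, injected mRNA and table cannot be told apart as sources of these differences.

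The L copies of dlx5 and dlx6 were low in wild type, dlx6.L near the floor and dlx5.L above it, and stood far higher in NPB explants. dlx5.L had 2162, 457 and 707 counts in NPB, 58.6, 15.3 and 14.5 CPM, against 0.504, 0.745 and 1.44 CPM in wild type. With TMM scaling it rose 54.8-fold, 5.78 on the log2 scale (SE 0.81, edgeR adjusted p 0.0009). With library totals alone, the scale of the CPM values, the rise was smaller, at 5.02 on the log2 scale. dlx6.L had 1147, 107 and 319 counts in NPB, 31.1, 3.57 and 6.53 CPM, against 0.31, 0.142 and 0.256 CPM in wild type. Its log2 fold change was 6.61 (SE 1.05, adjusted p 0.00155), which describes a gene that entered the test through its NPB counts. When genes needed only 1 count summed over the libraries, a filter that does not depend on a group, it was 6.55 (adjusted p 0.0103). With library totals alone it was 5.84.

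Even the lowest NPB library was above every wild-type library for both. Without NPB replicate 1 the log2 fold changes were smaller, and the lowest values with any 1 library left out were 4.65 for dlx5.L and 5.01 for dlx6.L, both still past the threshold.

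The S copies of the same genes were higher in wild type and had smaller log2 fold changes. dlx6.S had 3563, 445 and 1210 counts in NPB, 96.6, 14.9 and 24.8 CPM, and was 3.82 above wild type on the log2 scale (SE 0.80, edgeR adjusted p 0.00552), or 2.47 (adjusted p 0.00317) without NPB replicate 1. With library totals alone dlx6.S was 3.05 above. dlx5.S had 1623, 280 and 599 counts, 44, 9.34 and 12.3 CPM, and was 1.90 above (SE 0.62, adjusted p 0.0329). In CPM of the library total, NPB replicate 2 lay inside the wild-type range of dlx5.S (8.84 to 10.9 CPM). With TMM scaling the groups did not overlap, and overlap under other scalings was not examined. The dlx5.S call was lost without NPB replicate 1 (0.74, adjusted p 0.0502), without wild-type replicate 1, 2 or 3 (adjusted p 0.0829, 0.0933 and 0.0754), with limma-voom (0.0833) and with library totals alone (1.14, adjusted p 0.108). It was also lost with the replicate block in edgeR (0.057), and with the block and any number left out (0.067 to 0.108). The filter of 1 count summed over the libraries (0.095) and the threshold of 0.01 lost it as well.

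dlx3 rose in both copies. dlx3.L had 1538, 530 and 1070 counts in NPB, 41.7, 17.7 and 21.9 CPM, and its log2 fold change was 4.51 (SE 0.50, edgeR adjusted p 0.00024), 22.9-fold. dlx3.S had 1027, 248 and 360 counts, 27.8, 8.28 and 7.37 CPM, with 3.47 (SE 0.69, adjusted p 0.00377), 11.1-fold, or 2.44 on the log2 scale (adjusted p 0.00468) without NPB replicate 1. These folds are with TMM scaling. With library totals alone the log2 fold changes were smaller, 3.78 for dlx3.L and 2.71 for dlx3.S. The lowest NPB library stood more than 2 times above the highest wild-type library for each copy. The calls of dlx3.L, dlx5.L and dlx6.S held in all 20 alternative settings run, and that of dlx3.S in 19 of 20, lost with the replicate block and without number 2 (adjusted p 0.0541).

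dlx2 went the other way. dlx2.L had 2, 4 and 8 counts in NPB and dlx2.S 7, 10 and 7, 0.0542, 0.133 and 0.164 CPM and 0.19, 0.334 and 0.143 CPM. Every NPB library lay below every wild-type library, where the lowest values were 0.532 CPM for dlx2.L and 0.852 CPM for dlx2.S. The log2 fold change was -1.91 for dlx2.L (SE 0.59, edgeR adjusted p 0.0258) and -1.37 for dlx2.S (SE 0.54, adjusted p 0.0635). The dlx2.L call was lost without wild-type replicate 1 (adjusted p 0.0833) or 3 (0.068), and without NPB replicate 1 (0.0887), 2 (0.0863) or 3 (0.0583). It was also lost in DESeq2 (0.0724) and with the replicate block in edgeR (0.0643). Both copies entered the test through their wild-type counts, so a fall was built in. When genes needed only 1 count summed over the libraries, neither dlx2.L (-1.96, edgeR adjusted p 0.091) nor dlx2.S (-1.41, adjusted p 0.182) passed. Summed over both copies, dlx2 was lower at -1.60 (adjusted p 0.0243), and summed dlx3 (4.05), dlx5 (3.0) and dlx6 (4.13) were higher, 4 of 4 past the threshold against 53.3% of all summed genes.

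**Figure D3:**
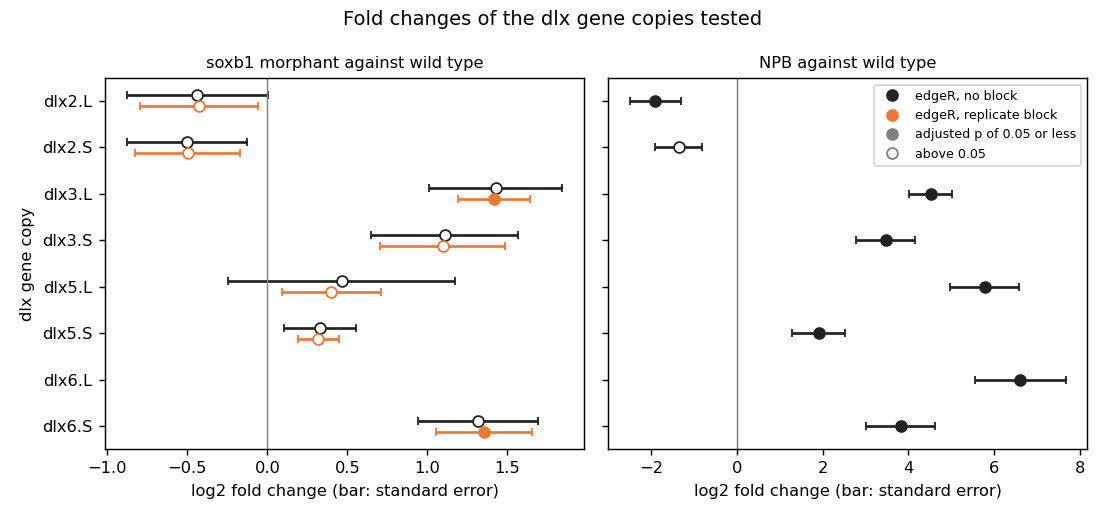
Log2 fold change of each tested dlx gene copy with its standard error, for soxb1 morphant against wild type (left, without the replicate block in black and with it in orange) and NPB against wild type (right), filled where the edgeR adjusted p was 0.05 or less. On the left only the orange points of dlx3.L and dlx6.S are filled, and on the right all but dlx2.S are filled, with dlx6.L farthest right at 6.61.

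TPM, transcript abundance corrected for length and scaled to the library, was given for the NPB libraries, and there the members could be ranked against each other. dlx6.S led with 96.28, 14.92 and 24.22 TPM in replicates 1, 2 and 3, and dlx5.L followed with 80.93, 23.33 and 19.75 TPM. The order of these neighbours was not the same in every library, since dlx5.L was above dlx6.S in replicate 2. dlx5.S had 46.77, 10.08 and 12.81 TPM and dlx3.L 34.22, 13.98 and 17.53 TPM, with dlx5.S above in replicate 1 alone. dlx6.L had 31.28, 3.66 and 6.57 TPM and dlx3.S 23.49, 6.94 and 6.06 TPM, with dlx6.L above in 2 of 3 libraries. Each of these 3 pairs of neighbours therefore did not differ beyond the spread over libraries. Across the gaps the order was steadier: dlx5.L was above dlx5.S, and dlx3.L above dlx6.L, in 3 of 3 libraries.

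The remaining members were far lower. dlx2.S had a mean of 0.137 TPM and dlx2.L 0.11 TPM, dlx4.L had 0.00667 TPM, and dlx4.S was listed at 0. All 10 together came to 313, 73.3 and 87.2 TPM in the 3 libraries.

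For the 6 members of dlx3, dlx5 and dlx6, NPB replicate 1 was above replicate 2 by 2.45-fold (dlx3.L) to 8.55-fold (dlx6.L) in TPM, and above replicate 3 by 1.95-fold (dlx3.L) to 4.76-fold (dlx6.L). The dlx2 copies, near the floor, did not share this: dlx2.L had 0.05, 0.17 and 0.11 TPM and dlx2.S 0.1, 0.22 and 0.09 TPM in replicates 1, 2 and 3. Other measures differed between the same libraries. Counts of chrd.1.S, a Chordin gene, stood at 2458, 13318 and 2957 CPM in replicates 1, 2 and 3, and those of wnt8a.L at 291, 546 and 293 CPM, against 0.256 to 1.78 CPM for chrd.1.S in wild type. These genes encode the BMP antagonist and the Wnt ligand whose mRNAs were injected. The summed non-neural ectoderm factors were 1584, 541 and 829 CPM, the BMP feedback and target genes 1707, 786 and 1297 CPM, and the blastula markers 569, 1443 and 1488 CPM. Replicate 1 was highest for the first 2 of these sums and lowest for the third. The lists overlap, with ventx1.2 in the first 2 and ventx2.2 in the last 2, so the sums are not separate measures. Replicate 1 was also highest for the summed neural markers (341, 201 and 131 CPM) and border markers (2671, 1624 and 1725 CPM). The epidermis markers (250, 156 and 139 CPM) and BMP receptors (389, 257 and 320 CPM) were highest there too. For the BMP ligands it was lowest (277, 613 and 597 CPM), for the Smad transducers in between (2285, 3274 and 2187 CPM). The border and epidermis lists share genes with the non-neural ectoderm list. The part of any of them in the spread of the dlx genes was not tested.

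**Figure D4:**
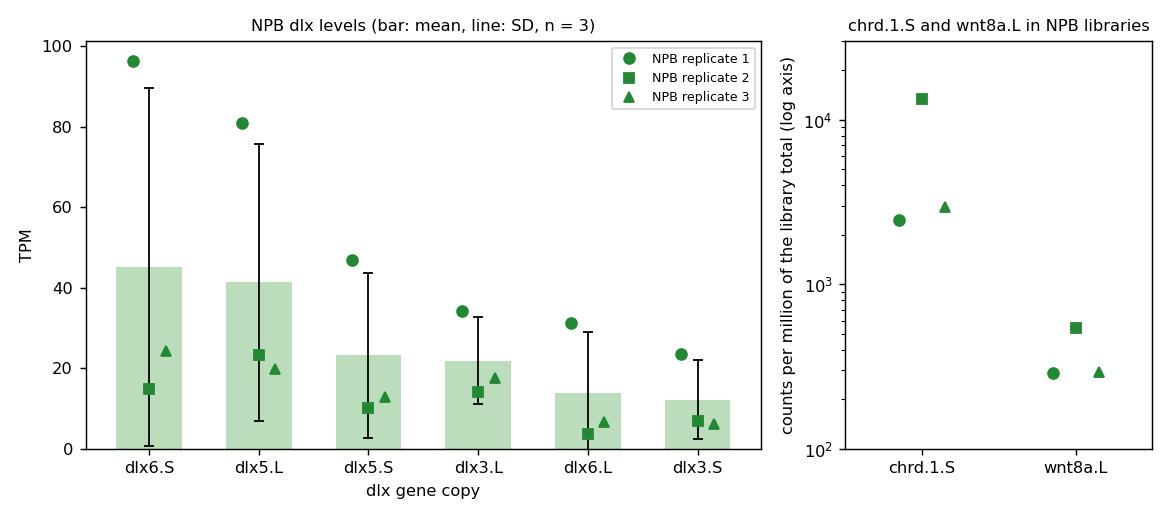
Left, TPM of the 6 most abundant dlx gene copies in the 3 NPB libraries, with the mean as a bar and the SD as a line cut off at 0 (n = 3). Right, chrd.1.S and wnt8a.L in the same libraries in CPM on a log axis. Replicate 1 (circles) is the highest library of every dlx gene shown, up to 96.28 TPM for dlx6.S, and replicate 2 (squares) is the highest of chrd.1.S at 13318.

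Among the surrounding genes, to be read against the 26.9% higher and 26.7% lower of all genes tested, 10 of 24 tested non-neural ectoderm factors were higher in NPB explants and 2 lower (edgeR, median log2 fold change 1.1), with gata2.L (7.42, SE 1.33, adjusted p 0.00266) and msx1.S (6.99, SE 0.61, adjusted p 9.13e-05) the farthest. Of the BMP ligands 4 of 9 were higher and 3 lower, and of the receptors 4 of 11 were higher and 2 lower, led by bmpr1b.S (5.04, SE 0.78, adjusted p 0.00137). The Smad transducers had 2 of 11 higher and 8 lower. Their sum was nevertheless larger, at 2187 to 3274 CPM in NPB explants and 764 to 907 CPM in wild type. The farthest of them, smad4.1.L, was higher (3.28, SE 0.21, edgeR adjusted p 3.4e-05). The BMP feedback and target genes had 5 of 18 higher and 5 lower, with szl.S, a secreted inhibitor of the BMP pathway, the farthest (-4.65, SE 0.49, adjusted p 0.000184). The epidermis markers (such as krt12.4 and trim29) had 5 of 6 higher and 0 lower, with sums of 10.9 to 26.3 CPM in wild type and 139 to 250.1 CPM in NPB explants. The neural markers had 6 of 9 higher and 0 lower, led by otx2.L (10.82, SE 0.66, adjusted p 3.2e-05), a forebrain gene, with sums of 8.02 to 8.45 CPM and 131 to 341 CPM. From 2 to 3 of the 10 neural gene copies were at or under the floor in wild type and 0 to 1 in NPB. The morphant comparison, with the same wild-type libraries, tested 5 neural, 5 epidermis and 21 non-neural ectoderm copies, against 9, 6 and 24 here. Copies that entered only through their NPB counts had a rise built in, which the shares over all genes do not correct for. The part of epidermal or neural cells in the dlx values was not tested.

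The balance of L and S copies differed by gene and by group. dlx5 counts came mostly from S in the blastula explants and in larger part from L in NPB. The L share of dlx5 was 4.83%, 7.78% and 11.6% in wild type, 3.93%, 7.78% and 13.1% in morphants and 57.1%, 62% and 54.1% in NPB. The stage 9 groups overlapped throughout, and the lowest NPB share (54.1%, exact 95% Clopper-Pearson interval 51.4% to 56.9%) was far above the highest wild-type share (11.6%, interval 8.61% to 15.2%). The intervals cover counting error only. In TPM, the L share of dlx5 in NPB was 64.6% ± 4.71 (SD, n = 3), where L was the larger copy as well.

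dlx6 kept S as the larger copy in every library. The L share of dlx6 was 3.62%, 3.1% and 6.35% in wild type, 1.63%, 0.846% and 1.48% in morphants and 24.4%, 19.4% and 20.9% in NPB. The NPB shares stood apart from both other groups, and the TPM share there was 21.9% ± 2.45. Wild-type and morphant shares did not overlap, but they rest on 4 to 8 L counts in a library and their intervals did (replicate 1, 1.58% to 7.01% in wild type and 0.599% to 3.51% in morphants).

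dlx3 was close to even at stage 9, with an L share of 48.2% ± 13.8 in wild type and 52.6% ± 4.38 in morphants, and 67.6% ± 7.44 in NPB (SD, n = 3 each). dlx2 had 43.5% ± 4.35, 44.6% ± 2.68 and 34.7% ± 16.4, the last from 9 to 15 counts in a library. The L copies of all dlx genes together took 17.3% ± 3.34 of dlx counts in wild type, 18.9% ± 3.23 in morphants and 48.6% ± 4.51 in NPB.

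The L-to-S ratio was then tested for all homeolog pairs with limma. Between NPB and wild type 2 of the 4 tested dlx pairs passed, both toward L, against 37.4% of 5336 pairs (20.3% toward L). The log2 ratio of dlx5 moved by 4.02 (SE 0.39, adjusted p 0.00072) and that of dlx6 by 2.55 (SE 0.37, adjusted p 0.00231). The dlx6 pair could be tested with this filter only through the NPB counts of dlx6.L. With a looser filter on the counts of L and S together, chosen after seeing the data, its difference was again 2.55 (SE 0.38, adjusted p 0.00392). The ratio of dlx3 moved by 1.2 (SE 0.50, adjusted p 0.0974) and that of dlx2 by -0.50 (SE 0.81, adjusted p 0.656), and neither passed. The dlx5 call held in 10 of 10 alternative settings, leaving aside the looser filter.

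Between morphants and wild type 0 of 3 tested dlx pairs passed, and 0 of 5282 pairs did (0%). With the replicate block 0 of 3 passed as well, against 10.9% of all pairs. The ratio differences were 0.07 (SE 0.50) for dlx2, 0.27 (SE 0.49) for dlx3 and -0.04 (SE 0.58) for dlx5. With the looser filter dlx6 could be tested. Its ratio differed by -1.74 (SE 0.46, adjusted p 0.573) without the block and by -1.74 (SE 0.29, adjusted p 0.0458) with it, against 3.74% of pairs. That call was lost with any 1 of the pairs left out (adjusted p 0.131, 0.184 and 0.167). Few pairs of any gene passed in those fits: 0.117% of 6811 without replicate 1, 0.573% without replicate 2 and 0% without replicate 3. The loss is therefore not particular to dlx6.

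**Figure D5:**
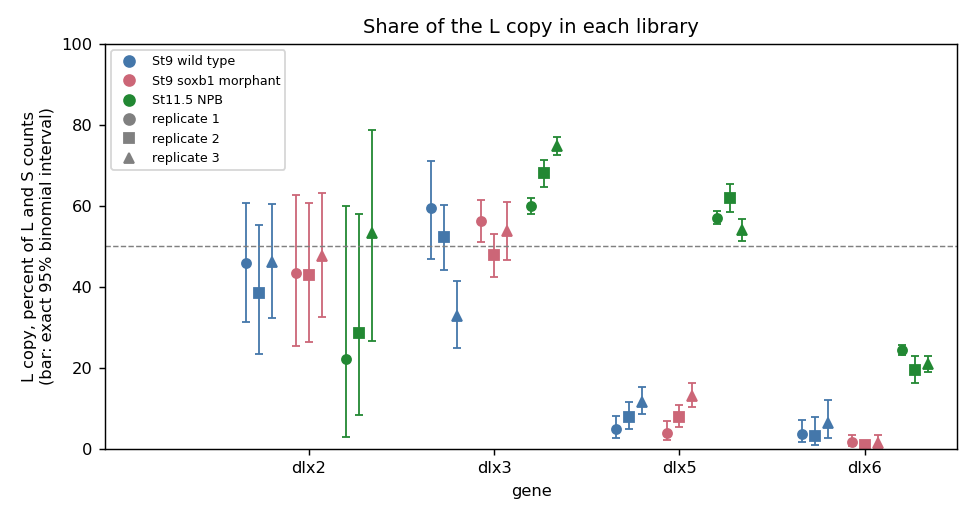
Share of the L copy in the L and S counts of dlx2, dlx3, dlx5 and dlx6, in percent, for each wild-type (blue), soxb1 morphant (red) and NPB (green) library, with exact 95% binomial intervals and a dashed line at 50%. The NPB shares of dlx5 lie above the line, between 54.1% and 62%, while those at stage 9 are at or below 13.1%, and the NPB shares of dlx6 lie between 19.4% and 24.4%.

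Neighbouring genes were compared with homeologs as a description. The order of genes in the RefSeq annotation of the later assembly v10.1 puts dlx6 beside dlx5 on both subgenomes, dlx4.L beside dlx3.L, and dlx4.S with a single uncharacterized gene between it and dlx3.S. The likeness of 2 genes was measured as the root mean square difference of their log2 CPM profiles, each centred on its own mean over the 9 libraries, where 0 is an identical profile. It was 0.84 between dlx5.L and dlx6.L and 0.86 between dlx5.S and dlx6.S, but 1.93 between dlx5.L and dlx5.S and 1.64 between dlx6.L and dlx6.S. For dlx5 and dlx6 the neighbours on one subgenome were thus closer in profile than the 2 copies of one gene. Closeness was not limited to neighbours: dlx6.S stood at 0.70 from dlx3.S and 0.77 from dlx3.L, and dlx5.S at 0.88 from dlx3.S. For dlx2 and dlx3 the copies were close, at 0.44 and 0.68. The 9 libraries fall into 3 groups, and the profiles share their library depths.

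By the same measure the genes most like dlx5.S among 23153 were plscr3.L (0.21), zbtb46.S (0.28) and stxbp5.L (0.31). Those most like dlx6.S were LOC108713130 (provisionally slc38a2, 0.40), prdx4.L (0.50) and LOC108707069 (provisionally ddx54, 0.51). Both dlx genes were picked for the highest mean CPM of the family in a group.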

How the data were processed

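Animal pole explants of 3 groups (3 St9 wild-type, 3 St9 soxb1 morphant and 3 St11.5 NPB libraries, grouped by title) were profiled by RNA-seq with a directional kit, and the study's methods describe 3 biological replicates. The authors trimmed reads with fastp, aligned them to genome version 9.2 with STAR and deposited raw HTSeq counts per gene, and the deposited TPM values of the NPB libraries came from RSEM. Tool versions and the strand setting of the counting are not given in the sources used here. Reads that match L and S copies equally may be lost or split, so the L and S values carry that uncertainty. The authors' DESeq2 table (mean, fold change, error and p-values) was not used.

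Counts were tested with edgeR 4.0.16 in R 4.3.3 (filterByExpr by group, TMM, robust quasi-likelihood F test) and adjusted over all genes tested by the Benjamini-Hochberg method, with a threshold of 0.05. Standard errors (SE) of edgeR folds were approximated by dividing the size of the log2 change by the root of the F statistic. L-to-S ratios, log2((L + 0.5)/(S + 0.5)), were tested with limma 3.58.1 (eBayes, trend, robust) over all pairs whose copies both passed the filter. DESeq2 1.42.0, limma-voom, other scalings and filters, a threshold of 0.01, all 9 libraries in 1 fit, summed copies, left-out libraries and the replicate block were alternatives. The scripts were tested on simulated data. Exact intervals at 95% cover counting error only.

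Wild-type and morphant libraries share replicate numbers in their titles, which do not say what a number marks. Deviations from the group means correlated at 0.87, 0.86 and 0.85 for equal numbers and at -0.48 to -0.38 for unequal ones, so the numbers were taken to pair the libraries.

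Every dlx gene was reported. From each other list at most the 2 genes with the largest absolute change among those passing were named, and for likeness the 3 nearest genes (prior count of 2) of the dlx gene with the highest mean CPM in each group. The members and lists were chosen with earlier results of these data known. All 10 members were found in the RefSeq table of v10.1, used for names and gene order only.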

Additional observations from a re-analysis of the deposited data

How the results depend on the processing

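Limits: n = 3 a group, and dlx2, dlx4 and stage 9 dlx6.L rest on few counts. For morphants against wild type the count of dlx genes passing, 0 of 7 with edgeR, became 2 with the replicate block, against 12.5% of all genes. With the block and a pair left out it was 1 to 2, against 6.72% to 11.7%. It was 1 with DESeq2, against 1.77%, and 3 with DESeq2 and the block, against 8.07%. With copies summed and the block it was 1, against 12.6% of all summed genes. The L-to-S count of 0 became 1 with the looser filter and the block, against 3.74% of all pairs. For NPB against wild type, equal replicate numbers did not deviate together (correlations of -0.06, -0.01 and -0.06). There the count of 7 of 8 was 5 with the replicate block, against 47.8% of all genes. With the block and a number left out it was 4 to 5, against 31.7% to 39.3%. With 1 library left out it was 5 to 6, against 44.8% to 47.9%. With copies summed it was 4 of 4, against 53.3%, and with copies summed and the block 3 of 4, against 47.6%. The L-to-S count of 2 was 1 with at least 10 counts in every library, which left 2 pairs to test, against 41.5% of all pairs. With the looser filter and the block it was 1 without number 2 or 3, against 8.8% and 3.93%. The summed fits with the block and the looser filter were chosen after seeing the data. Directions turned in 9 cases, none past the threshold, all with a library or pair left out. With 1 library left out, dlx5.L in morphants ranged from -0.31 to 0.99, and the morphant L-to-S differences ranged from -0.075 to 0.15 for dlx2, -0.18 to 0.60 for dlx3 and -0.49 to 0.43 for dlx5. With the looser filter, the block and a pair left out, dlx2 turned to -0.024, dlx3 to -0.22 and dlx5 to 0.090. Of the other alternatives for single genes or pairs, 350 kept direction and side of the threshold, 28 lost a call and 13 gained one. In CPM in place of TPM, dlx3.L ranked 3 and dlx5.S 4, and dlx3.S 5 and dlx6.L 6. A prior count of 0.5 replaced 1 of the 6 nearest genes.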

Other observations

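In the files 4 further genes carried the provisional name dlx1 beside an LOC symbol and fell outside the name rule. They are given as values only. LOC108701370, which precedes dlx2.L in the v10.1 gene order, had 41, 26 and 17 counts in wild type, 26, 18 and 23 in morphants and 4, 5 and 14 in NPB. LOC108702993, which precedes dlx2.S, had 17, 2 and 2, then 5, 3 and 11, then 1, 8 and 4. LOC108709208 had 1 count in NPB replicate 3 and 0 in the other libraries, and the TPM table listed it at 0.09 there. LOC108703985 had 0 counts in every library, while the TPM table listed it at 0.13, 0.07 and 0 in NPB replicates 1, 2 and 3, so the deposited tables differ for this gene. The first of these had its lowest values in NPB explants, as its neighbour dlx2.L did, but no test was run on it.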
